A study of Mus musculus with 10 samples.

Results

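The mRNAs of the aminoacyl-tRNA synthetases, the enzymes that load each tRNA with its amino acid, were examined in interscapular brown adipose tissue (iBAT) of mice lacking cardiolipin synthase in adipocytes. The 36 genes were taken by symbol from a table of 15075 genes, 20 encoding cytosolic synthetases and 16 encoding mitochondrial synthetases, whose symbols end in 2. The comparison was between 5 Control mice, which carried floxed Crls1 alleles without Cre, and 5 AdCKO mice, in which Adipoq-Cre, active in adipocytes, deletes a floxed Crls1 exon. All were C57BL/6 mice aged 20 weeks and housed at room temperature, and the sample labels name the groups wild-type and knockout. Each mouse gave 1 library of polyadenylated RNA from whole iBAT, so vascular, immune and any adjoining muscle cells were sampled with the adipocytes, and fewer cells of a type cannot be told apart from less RNA per cell. Crls1, the targeted gene, averaged 1060 ± 191 normalized reads per kb over Control mice but 217 ± 26.4 over AdCKO mice (SD, n = 5 per group), without overlap of the groups.

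Each synthetase recognizes 1 amino acid and its tRNAs and joins them with ATP, and protein synthesis draws on the charged tRNAs. Cytosolic and mitochondrial ribosomes use separate tRNA pools, so most amino acids have one nuclear gene for the cytosolic enzyme and another for the enzyme imported into mitochondria. Gars and Kars encode the enzymes for both compartments, and Eprs encodes a fused enzyme for glutamate and proline. In brown fat the mitochondrial enzymes serve the few mitochondrially encoded proteins, all of them subunits of the oxidative phosphorylation complexes. Many of the cytosolic synthetase genes are known targets of ATF4, a transcription factor made under amino acid shortage and mitochondrial stress.

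ATF4 binds with C/EBP partners at elements whose core reads TGATGNAA, where N is any base. Both strands were searched from 250 bases before to 50 bases after the annotated start of each gene (mm9). This core lay in the windows of 6 of the 20 cytosolic synthetases, namely Aars, Cars, Gars, Iars, Nars and Tars. It lay in 0 of the 16 mitochondrial windows, and in 354 of the windows of all 15075 genes (2.35%). All 6 genes were among the 13 cytosolic synthetases commonly listed as ATF4 targets (46.2%), and 0 of the other 7 held it. At the share of all genes, 2.35%, lists of 16 or 7 windows would usually hold no match. The absence of the core therefore does not set the mitochondrial or the other cytosolic synthetases apart from all genes. The stricter form TGATGCAA, which is contained in the first, was found in 5 of the 20 (25.0%, against 0.557% of all genes). Windows of 30 bases around 4 of the matches are shown here on the strand of the gene, since the core was found beside cytosolic and not beside mitochondrial synthetases. Capitals mark the match, which in all of these windows is the reverse complement of the core.
Cars: cggcgccgcggTTGCATCAgattctggaag
Gars: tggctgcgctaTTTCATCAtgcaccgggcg
Iars: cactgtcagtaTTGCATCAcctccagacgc
Tars: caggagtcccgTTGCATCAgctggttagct
The Cars window is chr7:150785950-150785979 on the minus strand, and its match begins at position 28, counting the annotated start as 1, inside the transcribed sequence. The Gars window is chr6:54987954-54987983 on the plus strand, with the match at -30. The Iars window is chr13:49777495-49777524 on the plus strand, with the match at 8. The Tars window is chr15:11329410-11329439 on the minus strand, with the match at -15. A match of letters is a description and does not show binding, and a window without the core says only that these letters were not found there. In promoters of the later GRCm38 annotation from RefSeq, which matched 13 cytosolic and 14 mitochondrial synthetases by symbol, 5 and 0 held the core, against 4.51% of 27025 genes. Those 5 were Aars, Gars, Iars, Tars and Yars.

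Values are normalized reads per kb of counted exon, which correct for transcript length. Levels of different genes can be set side by side only roughly, since the deposited signal is moderated and some genes share sequence or exon bases with others. The values were compared as log2(value + 1) with limma (two-sided). Benjamini-Hochberg adjustment of p ran across 11244 genes that averaged at least 10 in either group, and genes whose adjusted p fell under 0.01 were called. In AdCKO 53.6% of the tested genes were called, 25.6% as higher and 28.0% as lower, and the median log2 fold change was -0.01. Total normalized reads were 7615403 to 8171138 in Control and 5419800 to 5843024 in AdCKO, so the comparison was also made after giving every library the same total. That scaling raised the median over all genes by 0.47 on the log2 scale, and 86.1% of all calls were then higher, against 47.7% with the deposited values. All 36 synthetases passed the filter in both groups, and none was at 0 in any library. The replicates were tight, with a median coefficient of variation over 35 synthetases of 6.66% in Control and 7.68% in AdCKO, Lars2 being left out.

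The cytosolic synthetases were mostly higher in AdCKO iBAT and the mitochondrial synthetases mostly lower. Of the 20 cytosolic genes, 14 rose, 3 fell (Mars, Kars and Qars) and 3 were not called (Dars, Farsa and Hars), with a median log2 fold change of 0.56 and a range of -0.89 to 1.28. Among the 16 mitochondrial genes, 0 rose, 12 fell and 4 were not called (Cars2, Lars2, Mars2 and Wars2), with a median of -0.54. After scaling to the same total, 17 cytosolic genes were called higher and 1 lower, and 2 mitochondrial genes were called higher (Cars2 and Wars2) and 7 lower. Relative to the median of all genes the list medians under that scaling were 0.58 and -0.53, against 0.57 and -0.53 with the deposited values. No overlap between the groups was seen for 14 cytosolic genes that were higher, against 24.5% of all tested genes, and for 3 cytosolic and 12 mitochondrial genes that were lower, against 26.4%. In both scalings 16 of 20 cytosolic genes lay above the median of all genes and 15 of 16 mitochondrial genes lay below it.

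**Figure D1:**
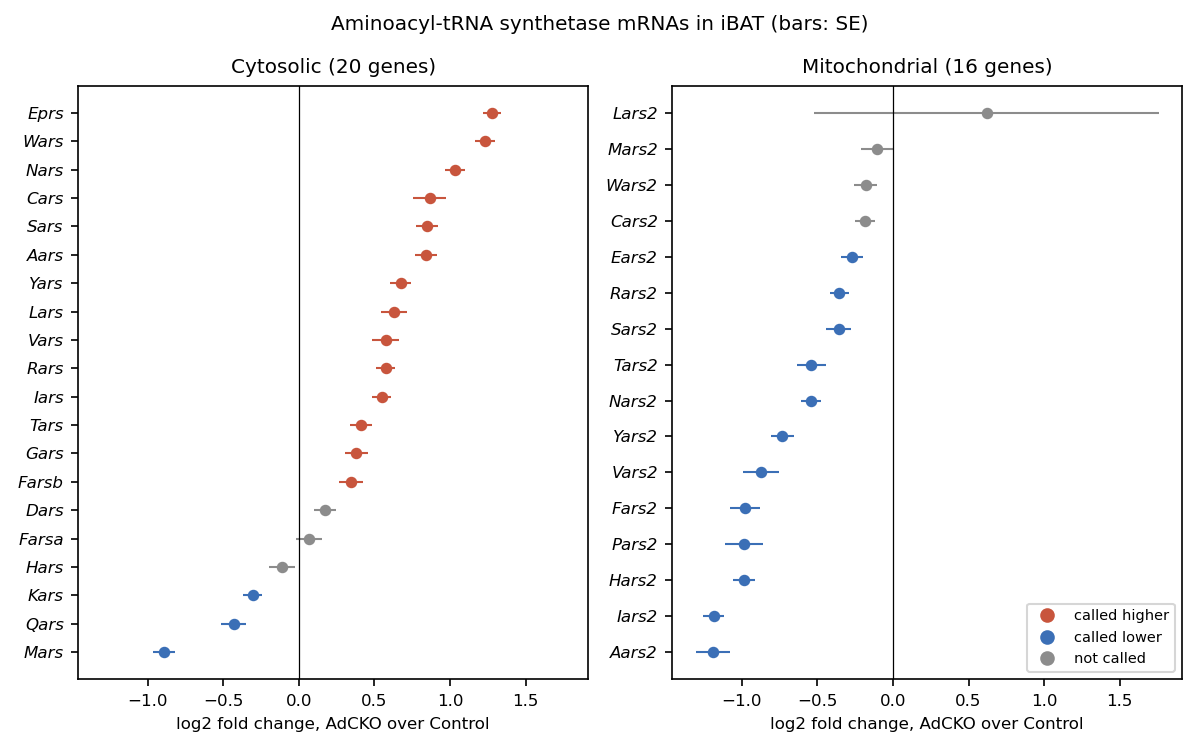
Log2 fold change of AdCKO over Control for each synthetase mRNA, on the scale of log2(value + 1), with cytosolic genes on the left and mitochondrial genes on the right. Points are limma estimates from 5 mice a group, bars are standard errors and colours give the call at an adjusted p under 0.01. Cytosolic genes run from Eprs at 1.28 to Mars at -0.89, and mitochondrial genes other than Lars2 lie between -1.19 and -0.10. With the same total in every library all points move up by about 0.47, and Hars, Kars, Qars, Cars2, Ears2, Mars2, Rars2, Sars2 and Wars2 then lie above 0.

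The summed level of the 20 cytosolic synthetases was 3233, 3329, 3176, 3287 and 3240 normalized reads per kb in the 5 Control libraries. In the 5 AdCKO libraries it was 4452, 4891, 4852, 4551 and 4717. Every AdCKO sum lay above every Control sum, with a mean of 4693 ± 189 against 3253 ± 57.8 (SD, n = 5). The 15 mitochondrial synthetases other than Lars2 summed to 2134, 2337, 2078, 2127 and 2184 in Control. They summed to 1207, 1227, 1191, 1201 and 1422 in AdCKO, where every library lay below every Control library. The cytosolic sum was thus 1.42 to 1.55 times the mitochondrial sum in Control libraries and 3.32 to 4.07 times in AdCKO libraries.

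**Figure D2:**
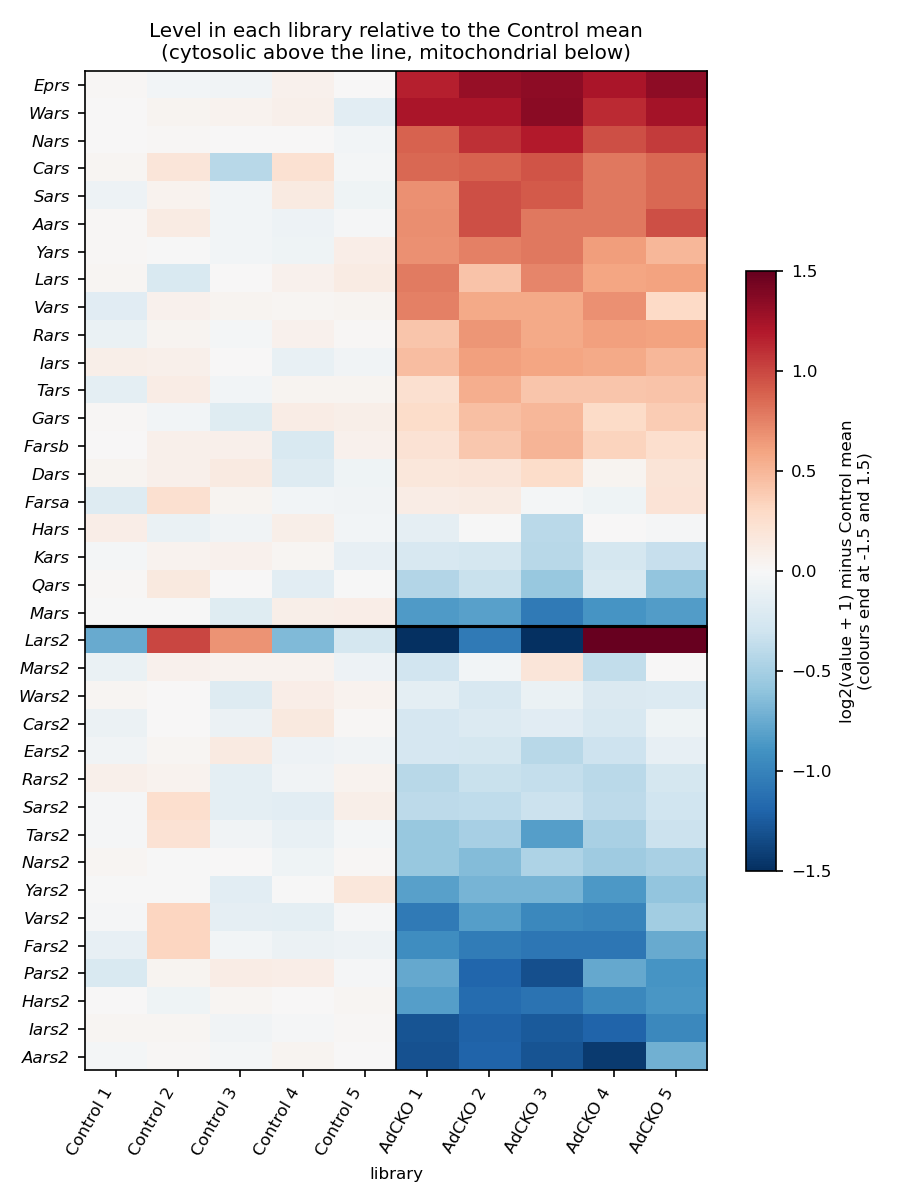
Level of each synthetase mRNA in each library, as log2(value + 1) minus the Control mean of that gene. Rows are genes, cytosolic above the line and mitochondrial below, and columns are the 5 Control and 5 AdCKO libraries. Colours end at -1.5 and 1.5, which Lars2 passes in several AdCKO libraries. The AdCKO columns are red for the upper cytosolic rows and blue for the lower mitochondrial rows, with AdCKO replicate 5 the palest for Aars2 and Vars2.

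The mRNAs of cell type markers also differed between the groups, which does not show whether cell numbers or RNA per cell changed. All 8 macrophage markers present in the table were called higher, and their summed level was 428 to 1222 in Control libraries but 5845 to 7863 normalized reads per kb in AdCKO libraries. The summed adipocyte markers lay between 205247 and 232322 in Control libraries and between 128692 and 153020 in AdCKO libraries. Of these markers 5 of 7 were called lower, among them Ucp1 and Cidea, while Fabp4 and Lep were not called. Fabp4, at 134139 to 163946 in Control and 101185 to 115806 in AdCKO, made up most of the sum. Lep went the other way, with means of 61.3 in Control and 145 in AdCKO and overlapping groups. The macrophage and adipocyte sums split the libraries by group, as did every synthetase that was called. The part of these shifts in the synthetase results was not tested. Skeletal muscle markers summed to 97.8 to 128 in Control and to 6058, 23785, 141, 8964 and 128 in the AdCKO libraries, with 1 of 8 markers (Acta1) called higher. The AdCKO libraries without that muscle signal, replicates 3 and 5, had cytosolic sums of 4852 and 4717, within the range of the other 3. Their mitochondrial sums without Lars2, 1191 and 1422, lay outside the 1201 to 1227 of the other 3. Their cytosolic over mitochondrial ratios, 4.07 and 3.32, likewise lay outside 3.69 to 3.98. The part of the muscle signal in these values was not tested. Endothelial markers summed to 1112 to 1447 in Control libraries and 1190 to 1642 in AdCKO libraries, with 2 of 5 called higher, and lymphocyte markers to 26.6 to 47.5 and 34.0 to 184, with 1 of 3 tested markers called higher. No marker was at 0 in any library.

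Among the cytosolic synthetases, Eprs, the fused enzyme for glutamate and proline, rose most. Its value was 157, 151, 150, 163 and 156 normalized reads per kb in the Control libraries and 349, 387, 395, 363 and 396 in the AdCKO libraries. The groups were far apart, and the lowest AdCKO library lay above the highest Control library by more than the spread within either group. Eprs thereby reached 243% of its Control mean (log2 change 1.28, SE 0.06, limma adjusted p = 1.14e-08).

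Wars, which charges tryptophan tRNA and is also known as an interferon-induced gene, was 208, 213, 215, 218 and 186 in Control and 489, 485, 530, 452 and 493 in AdCKO. The mean rose to 235% of Control (log2 change 1.23, SE 0.07, limma adjusted p = 3.07e-08). Nars, the asparagine enzyme, was 243, 244, 243, 243 and 234 in Control and 447, 515, 550, 471 and 499 in AdCKO. The Control values lay close together, and each AdCKO value was far above them (log2 change 1.03, SE 0.07, limma adjusted p = 8.43e-08).

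Cars, Sars and Aars, which charge cysteine, serine and alanine tRNAs, formed the next step. Aars was 242, 260, 234, 227 and 237 in Control and 389, 469, 415, 416 and 471 in AdCKO (log2 change 0.84, SE 0.07, limma adjusted p = 7.69e-07). Sars rose from 198 ± 13.2 to 357 ± 27.4 (SD, n = 5; log2 fold change 0.85). Cars was the least abundant cytosolic synthetase in both groups, at 32.2 ± 5.46 in Control and 58.8 ± 2.28 in AdCKO (log2 fold change 0.87). One of its Control libraries was low, at 23.7 against 31.0 to 37.5 in the others, and the groups still did not overlap.

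The remaining called cytosolic genes rose by less. Yars, Lars, Vars, Rars and Iars, the enzymes for tyrosine, leucine, valine, arginine and isoleucine, had log2 fold changes of 0.67, 0.63, 0.57, 0.57 and 0.55. Tars (threonine) rose by 0.41, Gars (glycine) by 0.38 and Farsb, the beta subunit of the phenylalanine enzyme, by 0.34 on the log2 scale. In all of these the lowest AdCKO library lay above the highest Control library. For Farsb, 265 of the annotated exon bases (10.8%) are shared with Sgpp2 on the other strand. Gars was the most abundant cytosolic synthetase in both groups, at 511, 492, 445, 547 and 539 in Control and 612, 694, 712, 619 and 661 in AdCKO. Its relative rise was thus among the smaller ones (limma adjusted p = 7.37e-04), while in absolute terms its mean rose from 507 to 659. For Iars, 61.3% of the transcript matched sequence elsewhere in the genome, on 1 chromosome, at 95% identity or more, so its value is uncertain where reads could be split between the copies.

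The order of the levels changed with these steps. In Control, Gars was followed by Nars (241 ± 4.23), Aars (240 ± 12.7) and Kars (232 ± 12.0), 3 genes whose values overlapped. In AdCKO, Gars was followed by Nars (496 ± 39.9) and Wars (490 ± 27.8), which overlapped each other, then Aars (432 ± 36.6) and Eprs (378 ± 20.8). Neighbours in this order, from Nars to Eprs, had overlapping values. Kars, at 187 ± 9.30, now lay below Aars, Eprs and Sars in every library and overlapped Farsb and Dars.

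Dars, Farsa and Hars were not called. Dars (aspartate) was 173 ± 15.1 in Control and 194 ± 11.3 in AdCKO (log2 fold change 0.17, limma adjusted p = 0.0581). Farsa, the alpha subunit that pairs with Farsb, was 90.1 ± 10.1 and 94.2 ± 7.37 (0.07, adjusted p = 0.509), and Hars (histidine) was 176 ± 11.1 and 163 ± 18.7 (-0.11, adjusted p = 0.282). Both subunits of the phenylalanine enzyme thus received different calls, and the difference between their changes was not tested. The groups overlapped for all 3 genes.

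The cytosolic genes that fell were Mars, Kars and Qars, which went against the other calls. Mars, the methionine enzyme, was 166, 166, 147, 178 and 179 in Control and 92.2, 94.1, 79.4, 89.5 and 92.6 in AdCKO. The highest AdCKO library lay well below the lowest Control library, and the mean dropped to 53.6% of Control (log2 change -0.89, SE 0.07, limma adjusted p = 6.15e-07). Mars was also the 1 cytosolic gene called lower under the same-total scaling, at -0.41. The gene spans 126733277 to 126748842 of chromosome 10 (mm9, minus strand), and its 3′ end shares 68 bases (126733277 to 126733344) with the 3′ end of Ddit3 on the plus strand. Ddit3, which encodes the stress factor CHOP, was 219, 207, 220, 229 and 222 in Control and 1214, 1283, 1743, 1289 and 1710 in AdCKO (log2 change 2.70, adjusted p = 3.13e-09). The library with the lowest Mars value, AdCKO replicate 3, had the highest Ddit3 value. AdCKO replicate 5, with Ddit3 nearly as high at 1710, had Mars at 92.6, so the AdCKO libraries showed no steady opposite order. The strand used in counting is not given in the sources used here, so reads of the shared bases cannot be assigned to one of the genes, and any Ddit3 reads counted there would add to Mars. These bases are 1.99% of the annotated exon bases of Mars.

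Kars, the lysine enzyme of both compartments, was 227, 241, 242, 236 and 213 in Control and 196, 192, 173, 193 and 182 in AdCKO (log2 fold change -0.31, limma adjusted p = 8.48e-04). Qars, the glutamine enzyme, was 148, 163, 147, 131 and 146 in Control and 108, 116, 98.9, 125 and 97.0 in AdCKO (-0.43, adjusted p = 6.81e-04). Neither gene had overlapping groups, but the gap for Qars, between 125 and 131, was narrow. Relative to all genes both stayed lower under the same-total scaling, while their signs turned, to 0.17 for Kars and 0.05 for Qars. Under quantile normalization the call for Kars was lost (log2 change -0.20, limma adjusted p = 0.0113).

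The cytosolic genes were then grouped by what is known of their enzymes. Of the 13 commonly listed ATF4 targets, 12 rose and 1 fell (Mars), with a median log2 fold change of 0.67. Of the other 7, 2 rose (Farsb and Rars), 2 fell (Kars and Qars) and 3 were not called, with a median of 0.07. These shares, 28.6% higher and 28.6% lower, were close to the 25.6% and 28.0% of all tested genes. Mars was thus the exception in the first set. Of the cytosolic synthetases, 8 sit together in the multisynthetase complex, and the calls there were split, with 4 higher (Eprs, Iars, Lars and Rars), 3 lower (Mars, Kars and Qars) and Dars not called. Of the 12 enzymes outside the complex, 10 rose and 0 fell, with a median of 0.62. All 3 cytosolic genes that fell thus encode members of the complex. The 3 non-enzyme proteins that scaffold it, Aimp1, Aimp2 and Eef1e1, rose with log2 fold changes of 0.28, 0.42 and 0.51. The groups did not overlap for Aimp1, Aimp2 or Eef1e1, but the calls lay near the threshold (limma adjusted p = 0.00587, 0.00665 and 0.00269). Only 1 of the 3 calls was left without AdCKO replicate 1 or 2 or without Control replicate 4 or 5. By structural class, 7 of 9 class I and 6 of 10 class II cytosolic enzymes rose.

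Among the mitochondrial synthetases, Aars2 and Iars2 fell most. Aars2, the alanine enzyme, was 123, 128, 123, 130 and 126 in Control and 50.3, 54.3, 50.9, 46.0 and 76.4 in AdCKO. AdCKO replicate 5 stood above the other 4 but remained well below every Control library. Its mean was 44.1% of Control (log2 change -1.19, SE 0.11, limma adjusted p = 2.15e-06). Iars2, the isoleucine enzyme and by its mean the most abundant synthetase of Control iBAT, was 636, 636, 603, 618 and 632 in Control and 254, 270, 260, 272 and 320 in AdCKO. Its AdCKO mean was 44.0% of the Control mean (-1.18, SE 0.07, adjusted p = 5.11e-08). Annotated exons of Iars2 overlap those of Rab3gap2 on the other strand by 2018 bases, mostly beyond the end of the RefSeq transcript in the table (chromosome 1, 187110541 to 187153280).

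Hars2, Pars2 and Fars2 fell alike in size. Hars2 (histidine) was 121, 115, 123, 121 and 123 in Control and 67.3, 53.4, 55.5, 61.1 and 65.2 in AdCKO (log2 fold change -0.99, limma adjusted p = 3.03e-07). Fars2, the single-chain phenylalanine enzyme and after Iars2 the most abundant of those called, was 309, 422, 328, 317 and 319 in Control and 177, 162, 158, 159 and 199 in AdCKO (-0.98). Pars2, the proline enzyme, was low throughout, at 25.5 ± 2.41 in Control and 12.5 ± 2.29 in AdCKO (-0.99, adjusted p = 2.28e-05). These 3 genes had AdCKO means of 50.3%, 50.4% and 49.0% of Control, and no library of one group reached the range of the other.

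The other called mitochondrial genes fell by less. Vars2, Yars2, Nars2 and Tars2, the enzymes for valine, tyrosine, asparagine and threonine, had log2 fold changes of -0.87, -0.73, -0.54 and -0.54. Sars2 (serine) and Rars2 (arginine) fell by 0.36 and 0.35 on the log2 scale. The smallest called change was that of Ears2, the glutamate enzyme, which was 42.8, 45.4, 48.9, 42.1 and 42.7 in Control and 37.2, 36.8, 33.0, 35.4 and 40.7 in AdCKO. Its log2 change was -0.27 (limma adjusted p = 0.00707), and the call was lost in 8 of the 10 fits that left out 1 library, with adjusted p between 0.00388 and 0.0191.

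Cars2, Wars2 and Mars2 were not called. Their log2 fold changes were -0.19, -0.18 and -0.10 (limma adjusted p = 0.0257, 0.0475 and 0.421), and in each the groups overlapped. Mars2 (methionine) was, with Pars2, the least abundant synthetase of Control iBAT, at 22.0, 24.8, 24.6, 24.6 and 22.4, and ranged from 18.1 to 27.0 in AdCKO. By structural class, all 7 class II mitochondrial enzymes fell, with a median of -0.98, and 5 of the 9 class I enzymes fell, with a median of -0.27. The difference between the classes was not tested.

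The fall was shallower in AdCKO replicate 5, which had the highest AdCKO value for 11 of the 16 mitochondrial genes and the lowest for 0. Left out, it changed neither count, with 14 cytosolic genes higher and 12 mitochondrial genes lower. Hars and Hars2 lie head to head on chromosome 18 of mm9 with annotated starts 74 bases apart, and exons of their longer annotated transcripts share 195 bases on opposite strands. Of this pair, Hars2 was called and Hars was not. Annotated exons of Aars, Cars, Vars, Yars, Ears2 and Nars2 also overlap those of other genes, by 0.505% to 6.74% of their bases.

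Lars2, the mitochondrial leucine enzyme, varied more than any other synthetase. It was 243, 829, 660, 259 and 344 in Control and 137, 196, 118, 2405 and 13154 in AdCKO. AdCKO replicates 1, 2 and 3 lay below every Control library, and replicates 4 and 5 lay above every one of them. The fitted log2 change was 0.62 with a standard error of 1.14 (limma adjusted p = 0.652). Without AdCKO replicate 5 it was -0.47, and without AdCKO replicates 4 and 5 it was -1.48 (adjusted p = 0.00763), a choice made after these values were seen. Bases 3009 to 3406 of the 3881-base Lars2 transcript matched 5 other places on 4 chromosomes at 95% identity or more, and 32 of the 36 synthetases had no such match, the others being Iars, Farsa and Wars2. In the same 2 libraries the summed level of 29 low histone genes, whose mRNAs mostly lack a poly(A) tail, was 108 and 127, against 98.3 to 104.7 in the other 8. Over all 53 histone genes the sums were 3465 and 3999 in these libraries and 2273 to 3976 in the other 8, so AdCKO replicate 4 did not stand apart there. The part of these features in the Lars2 values was not tested, and these histone genes were chosen after the Lars2 values were seen.

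**Figure D3:**
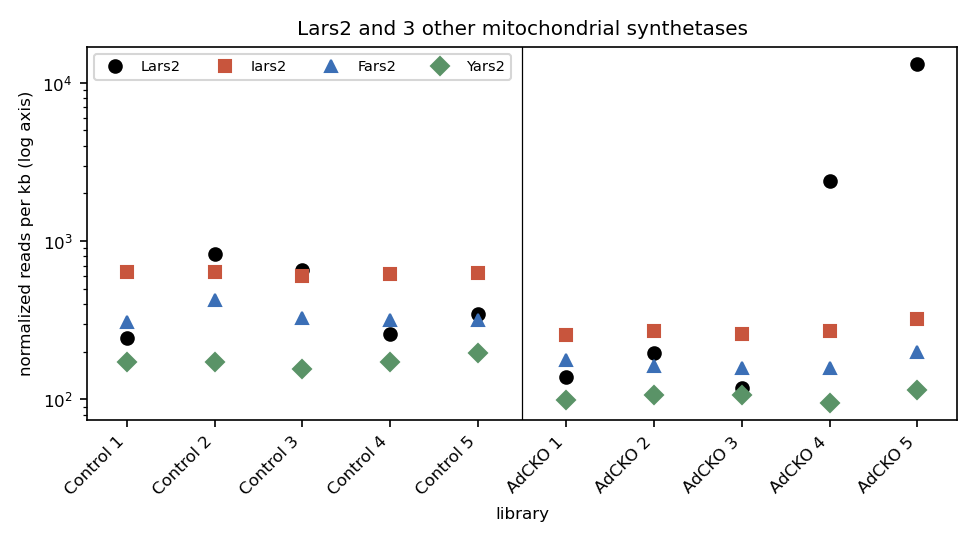
Normalized reads per kb (log axis) of Lars2 and of 3 other mitochondrial synthetases, Iars2, Fars2 and Yars2, in each of the 10 libraries. Lars2 reaches 2405 and 13154 in AdCKO replicates 4 and 5. In replicate 4 Iars2 and Fars2 stay within the range of the other AdCKO libraries, and Yars2, at 95.4, is the lowest. In replicate 5 Iars2, Fars2 and Yars2 are all the highest of AdCKO, at 320, 199 and 115.

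Because some amino acids have a synthetase gene for each compartment, the cytosolic value was divided by the mitochondrial value within each library. Ratios printed for single libraries are of the values themselves, which no scaling of a whole library can move, and the tests and the differences were computed on log2(value + 1). Of 16 such pairs, 14 had a higher ratio in AdCKO, 1 a lower ratio and 1 did not differ past the threshold (exact two-sided permutation test of the log2 ratios, p = 0.0079 for each of the 15, the smallest p that 5 against 5 allow, not adjusted for the 16 pairs). The groups did not overlap in those 15 pairs. Of all tested genes taken singly, 50.9% did not overlap, and the share among other pairs of genes was not computed. The ratios are built from the values of the single genes given above. Eprs entered with Ears2 and again with Pars2. The median difference in log2 ratio over the 16 pairs was 1.31. Without a pseudocount, an alternative added after the data were seen, 14 pairs were again higher and 1 lower, with a median difference of 1.32.

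Eprs over Pars2 changed most. Its ratio was 7.27, 5.79, 5.45, 5.98 and 6.20 in Control and 24.1, 36.5, 41.3, 25.1 and 29.7 in AdCKO, a difference of 2.26 in log2 ratio (2.33 without the pseudocount). Aars over Aars2 was 1.97, 2.04, 1.90, 1.74 and 1.87 in Control and 7.73, 8.64, 8.15, 9.05 and 6.17 in AdCKO, a 4.09-fold change of the ratio (4.14-fold without the pseudocount). Both pairs joined a gene that rose with a gene that fell.

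For several amino acids the more abundant mRNA of the pair changed. Yars over Yars2 was 0.596 to 0.678 in Control and 1.34 to 1.78 in AdCKO. Tars over Tars2 was 0.661 to 0.804 in Control and 1.22 to 1.73 in AdCKO. In these pairs the mitochondrial mRNA was the more abundant in every Control library and the cytosolic mRNA in every AdCKO library. Vars over Vars2 crossed in the same way in 4 of the 5 AdCKO libraries, from 0.402 to 0.541 in Control to 1.28 to 1.73, with AdCKO replicate 5 at 0.847. Iars over Iars2 rose 3.32-fold (3.34-fold without the pseudocount) and did not cross, from between 0.109 and 0.122 to between 0.324 and 0.425.

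The pairs whose cytosolic gene was not called still shifted. Farsa over Fars2 rose from between 0.250 and 0.281 to between 0.519 and 0.604, and Hars over Hars2 from between 1.38 and 1.55 to between 2.38 and 3.26. The opposite shift was seen for Mars over Mars2, which was 7.56, 6.67, 5.99, 7.22 and 7.97 in Control and 4.81, 4.11, 2.95, 4.95 and 3.89 in AdCKO. Lars over Lars2 lay between 0.0532 and 0.217 in Control libraries but between 0.00599 and 0.735 in AdCKO libraries, with no difference in mean log2 ratio past the threshold (exact permutation test, p = 1.0).

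**Figure D4:**
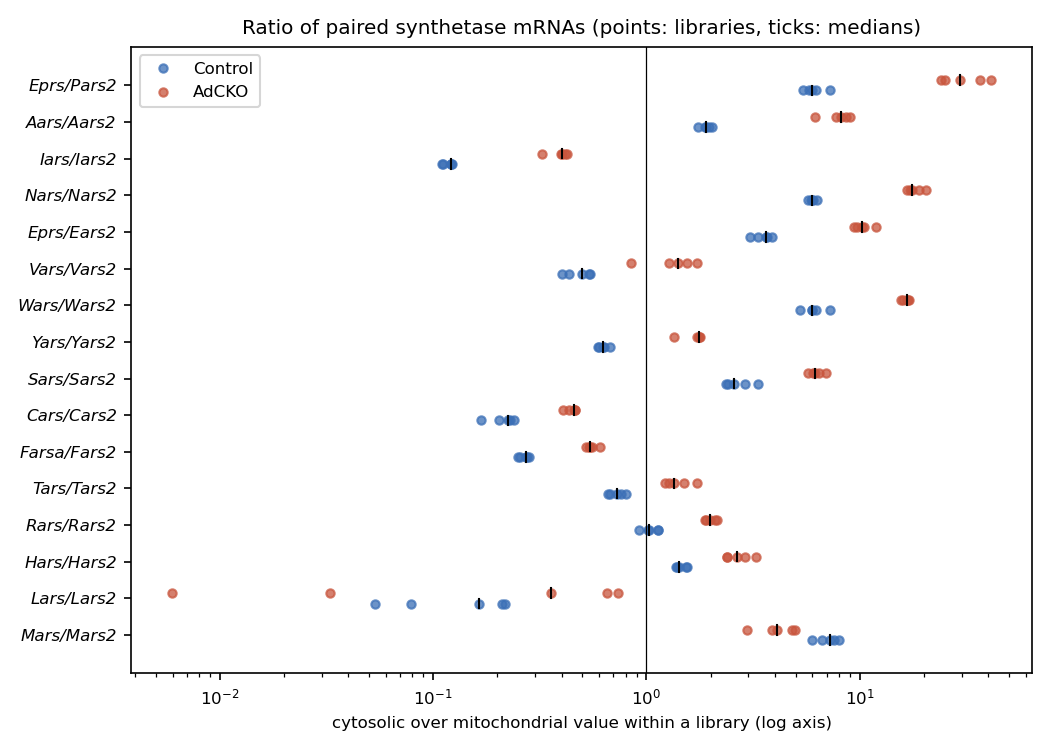
Ratio of the cytosolic to the mitochondrial synthetase value within each library, on a log axis, for 16 pairs. Points are libraries, blue for Control and red for AdCKO, and ticks are group medians. The AdCKO points lie to the right of all Control points in 14 pairs, to the left for Mars over Mars2, and spread across the Control points for Lars over Lars2.

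Other genes of tRNA charging and translation were compared in the same fit. The list of other genes around tRNA charging held 12 genes of the table, not all of which encode enzymes that charge tRNA. Iba57, for example, is an iron-sulfur cluster assembly factor of mitochondria and charges no tRNA. Of the 12, 9 fell, 0 rose and 3 were not called, with a median log2 fold change of -0.67. Without Iba57, 8 of 11 fell, with a median of -0.66. After scaling to the same total, 4 of the 12 were called lower. Gatb, a subunit of the amidotransferase that makes glutaminyl-tRNA in mitochondria, was 222, 231, 208, 181 and 189 in Control and 75.2, 84.4, 75.5, 98.1 and 102 in AdCKO (-1.24, limma adjusted p = 7.59e-07). Tarsl2, a further threonine synthetase of the cytosol, fell by 0.81 on the log2 scale. Tarsl2 thus went against Tars, which rose. Iba57 fell by 0.91.

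Of 14 genes of tRNA export and processing, 8 fell and 1 rose, with a median of -0.37. The gene that rose was Xpot, the nuclear export receptor for tRNA, at 85.1, 78.8, 71.4, 78.7 and 83.4 in Control and 105, 119, 143, 113 and 118 in AdCKO (0.58, limma adjusted p = 7.06e-05). Those that fell most were Hsd17b10, a subunit of mitochondrial RNase P (-1.21), and Mto1, which modifies mitochondrial tRNAs (-1.14). Trit1, a tRNA isopentenyltransferase, fell by 0.74 and 1110008L16Rik fell by 0.79. Scaled to the same total, this list had 4 genes called higher and 4 lower.

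Of the 9 translation factors of mitochondria, 8 fell and 0 rose, with a median of -0.64, close to that of the mitochondrial synthetases. Under the same-total scaling 3 were called lower. Tufm, the mitochondrial elongation factor that delivers charged tRNA to the ribosome, fell by 1.25, and Gfm2, a ribosome recycling factor, fell by 1.06. Mtif3, an initiation factor, fell by 0.92, and Mtrf1, of the release factor family, fell by 0.72.

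Among cytosolic translation factors, 2 of 7 elongation factor genes rose (28.6%) and 0 fell, with a median of 0.16, a share close to the 25.6% of all tested genes. The genes that rose were Eef1b2 (0.47) and Eef1g (0.49), subunits of the exchange factor that recharges the tRNA-carrying elongation factor. All 7 were called higher under the same-total scaling. Eef2, the translocation factor, was not called, at -0.22, and its sign turned under the same-total scaling (0.26) and under quantile normalization (0.42). Of 8 eIF2 and eIF2B genes, 1 rose (Eif2s2, 0.38) and 2 fell (Eif2b1, -0.28, and Eif2b5, -0.29), shares of 12.5% and 25.0% that were no larger than those over all tested genes, while under the same-total scaling 6 were called higher and 0 lower.

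Most ATF4-axis genes outside the synthetases rose. Of 19 tested, 15 rose and 0 fell, with a median log2 fold change of 1.34, but Aldh18a1 and Slc7a5 passed the filter through AdCKO alone. Among the other 17, 13 rose, with a median of 1.28. The median of the ATF4-listed cytosolic synthetases was 0.67, and the difference between the lists was not tested. Atf4 was 510, 599, 440, 837 and 688 in Control and 1343, 1396, 1811, 1049 and 1519 in AdCKO (1.22, limma adjusted p = 6.30e-05). Psat1 and Mthfd2, of serine and one-carbon metabolism, rose by 3.80 and 3.43 on the log2 scale, Trib3, a pseudokinase, by 3.34, and Slc7a5, a transporter of large neutral amino acids, by 3.12. Asns, the asparagine synthetase that does not charge tRNA, was not called, at 341 ± 24.9 in Control and 387 ± 25.0 in AdCKO (0.18, adjusted p = 0.0372). The TGATGNAA core lay in the windows of 7 of the 20 listed ATF4-axis genes, Asns included, so the core was found beside a gene that was not called as well as beside genes that rose.

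**Figure D5:**
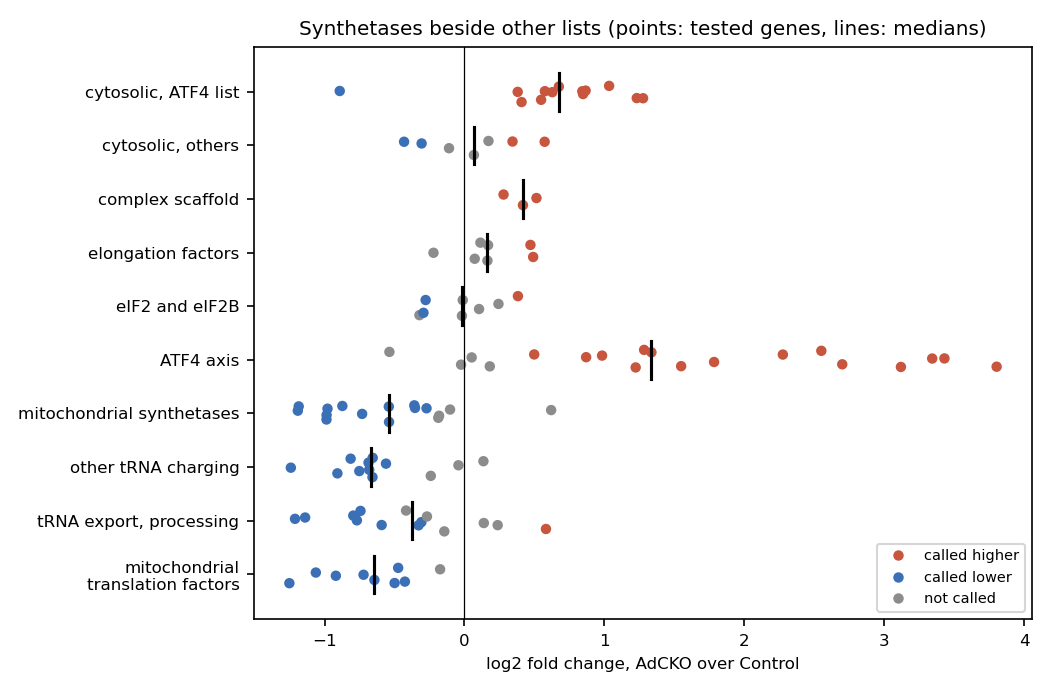
Log2 fold change of AdCKO over Control for the tested genes of each list, with the synthetases beside other genes of translation and of the ATF4 axis. Points are genes, coloured by their call at an adjusted p under 0.01, and black lines are list medians, from -0.67 for other tRNA charging genes to 1.34 for the ATF4 axis. With the same total in every library all lists move up by about 0.47.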

How the data were processed

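RNA sequencing of iBAT from 5 Control and 5 AdCKO mice was analysed, with groups taken from the sample labels. STAR was used by the authors for mapping (mm9), iRNA-seq for counting over exons and DESeq2 for normalization. What the authors deposited is a moderated signal in normalized reads per kb rather than counts, so DESeq2 could not be repeated. None is 0, depth is unknown, no counting interval was computed, and fold changes understate those of low genes. Columns of the authors' own log2 fold change and adjusted p-value were not used. The members and lists were chosen with earlier results of these data known.

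A pseudocount of 1 was added before log2, and 11244 genes with a mean of at least 10 in a group were tested with limma (version 3.58.1, R 4.3.3, eBayes with a trend, threshold 0.01). On simulated data for 10640 genes, 62 of 66 genes changed by 1 on the log2 scale were recovered and 21 of 76 changed by 0.5, with 1 unchanged gene called. Far fewer genes were changed there than the 53.6% of tested genes called in the data. These recovery rates therefore need not hold for the data. The totals are normalized reads summed over genes after multiplying by counted length. Copies elsewhere in the genome were sought with blastn 2.17.0 (at least 100 bases, 95% identity), and exon overlaps in GENCODE vM1. Promoters were read from the mm9 genome. Plots used Python 3.11.15 with matplotlib 3.10.9. All 36 synthetases were named, with Crls1, Ddit3, and from each other list at most the 4 genes with the smallest p and called genes going against its median. A gene that this rule names and some promoter windows are not reported here. Asns, Aldh18a1, Atf4, Acta1, Ucp1, Cidea, Fabp4, Lep and Rab3gap2 were named outside this rule, after their values were seen, or as overlapping genes. The alternatives were other pseudocounts, filters, scalings, limma settings and thresholds, each library left out, and a replicate block.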

Additional observations from a re-analysis of the deposited data

Results flagged for a closer look

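Each gene was checked for 1 library standing far from the other 4 of its group, by the gap to the nearest of them over the whole range (above 0.71), on the scale of log2(value + 1). Of 72 groups of 5 libraries 7 stood out, and chance gives about 1 in 20. Control replicate 2 was high for Fars2 (422, others 309 to 328), Tars2 (201, others 161 to 171) and Vars2 (143, others 103 to 113), and low for Hars2 (115, others 121 to 123). These 4 mitochondrial synthetases fell in AdCKO with that library left out as well. Farsb was low in Control replicate 4 (138, others 163 to 171), Vars in Control replicate 1 (48.9, others 55.9 to 57.5) and Nars in Control replicate 5 (234, others 243 to 244). On the scale of the deposited values, tried after the data were seen, 10 groups stood out. These were the same 7 and AdCKO replicate 5 for Lars2 (13154, others 118 to 2405), Aars2 (76.4, others 46.0 to 54.3) and Iars2 (320.1, others 254 to 272).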

How the results depend on the processing

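Leaving out single libraries, the cytosolic counts stayed at 14 higher and 3 lower, and 11 or 12 mitochondrial synthetases were lower, the difference lying in Ears2. The scaffold genes had 1 to 3 called higher, with 1 left without AdCKO replicate 1 or 2 or Control replicate 4 or 5. For tRNA export and processing 1 or 2 were higher (2 without AdCKO replicate 4), and for eIF2 and eIF2B 1 or 2 (2 without Control replicate 3). The same total in every library changed most, as that scaling raises all genes. The cytosolic median became 1.04 with 1 gene lower, and the mitochondrial median -0.067 with 2 higher and 7 lower. Other tRNA charging had 4 lower, tRNA export and processing 4 higher and 4 lower, elongation factors 7 higher, eIF2 and eIF2B 6 higher and 0 lower, and mitochondrial translation factors 3 lower. Signs turned for Hars (0.37), Kars (0.17), Qars (0.046), Cars2 (0.29), Ears2 (0.20), Mars2 (0.36), Rars2 (0.12), Sars2 (0.12), Wars2 (0.29), Eef2 (0.26), Eif2b5 (0.19), Eif2b1 (0.20) and Eif2b4 (0.16). Quantile normalization left 2 cytosolic synthetases lower, as Kars lost its call, and gave 2 tRNA export and processing genes and 6 elongation factors called higher, and turned Eef2 (0.42). An adjusted p under 0.05 gave 2 tRNA export and processing genes and 2 eIF2 and eIF2B genes called higher, and array quality weights gave 2 of the latter. Lars2 ran from -0.47 (without AdCKO replicate 5) to 1.22 (without AdCKO replicate 3) with single libraries left out, and was -1.48 without AdCKO replicates 4 and 5. The difference in the Lars/Lars2 log2 ratio turned with a pseudocount of 10 (-0.0868), with quantile normalization (-0.26), and with single libraries left out, where it ran from -0.62 to 1.11. The cause of these changes was not tested.

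Same-numbered libraries did not deviate together (correlations of -0.069, 0.087, -0.171, -0.268 and 0.098), so the values gave no sign that the replicate numbers pair the mice. Such correlations cannot exclude a pairing with small effects. With a replicate block, 14 cytosolic genes were higher and 3 lower and 11 mitochondrial genes were lower. For the pair ratios, 0 of 16 passed under the block, where 5 pairs cannot give a p below 0.0625 and 15 ratios were at it. The depth behind the values is unknown, so what it limits was not computed. A synthetase that was not called may still differ.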
